A study of Mus musculus with 8 samples.

Results

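RNA of P19 cells was compared between 105 and 225 min after actinomycin D in cells given a control siRNA and in cells given an siRNA against Upf3a, so that the late interval was measured in 2 pairs of conditions. P19 is a mouse embryonal carcinoma line with features of pluripotent cells. The protein of Upf3a takes part in nonsense-mediated decay, and the drug was added 24 h after transfection in every condition of both arms. An siRNA lowers its target and does not remove it, and all cells come from 1 line. The genes described are the 7608 of the 23284 genes in the deposited table whose mean FPKM (fragments per kilobase of transcript, scaled to the size of the library) over these 4 conditions was 5 or more. The conditions at 0 and 15 min of each arm gave the early level and part of the estimate of spread.

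Actinomycin D intercalates into DNA and stops the RNA polymerases, so that from then on an mRNA can only be processed or degraded. Decay usually begins with shortening of the poly(A) tail by the CCR4-NOT deadenylase, which proteins bound to the 3′ untranslated region (3′ UTR) can recruit. AU-rich elements are the best known such sites in mRNAs of growth regulators, and Pumilio proteins recruit the same deadenylase to a motif of their own. Ribosomal protein and metabolic enzyme mRNAs are classed as stable, and those of transcription factors and signalling regulators as short-lived.

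Each condition has 1 value per gene, in which the authors combined the 2 cultures that the labels list for it. There is no separate replicate, so the agreement of the 2 arms stands in for one, and the p-values cover disagreement between arms and time points only. FPKM is a share of the library: it cannot show the fall of total mRNA, and in bulk RNA fewer cells holding a transcript and less of it per cell cannot be told apart. Each late change below is therefore the difference of log2(FPKM + 1) between 225 and 105 min after centring each condition. The median deviation of the 11452 genes tested from their own means over the 8 conditions was subtracted. Tested genes are those with a mean FPKM of 1 or more over all 8 conditions. A value of 0 means loss at the pace of the median gene, and "rose" and "fell" are meant on this scale. FPKM totals went from 686647 to 880304 in the control arm and from 662435 to 923333 in the knockdown arm over the interval, after 537350 to 562848 at 0 and 15 min. Cytosolic ribosomal protein genes made up 32.7% and then 36.9% of the total in the control arm, and 30.3% and then 36.0% in the knockdown arm. The 43 pluripotency genes summed to 3414 to 5212 FPKM in the late conditions, led by Pou5f1. Among blood and epithelial markers in those conditions, Ptprc, Krt5, Krt14 and Hbb-b1 were at 0 to 0.12 FPKM. The macrophage markers Cd68 and Lyz2 were at 2.26 to 3.67 and 2.54 to 4.51 FPKM. Other epithelial markers were present: the blood, endothelial and epithelial list summed to 186 to 251 FPKM, mostly from Epcam, Krt8 and Krt18.

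In limma with time point and arm as terms (Benjamini-Hochberg adjusted p below 0.05), 59.6% of the tested genes were called, 28.5% higher and 31.1% lower. Of the 7608 genes at 5 FPKM or more 2940 (38.6%) were called higher and 1859 (24.4%) lower. These calls are relative to the median gene and depend on that choice: on a scale set by the ribosomal protein genes the median of all tested genes was -0.58, with 11 of the 7608 higher and 6620 lower, and values on that scale are to be read against -0.58. The median late change of these 7608 genes was 0.10, the 5th percentile was -0.73 and the 95th percentile 0.51. Falls were therefore longer-tailed than rises: 110 called genes fell by at least 1 log2 unit, and 6 rose by as much. The sign was the same in both arms for 86.8% of the 7608 genes, against 85.2% of all tested genes. Across the 7608 genes the late changes of the arms had a Pearson r of 0.56 and a Spearman rho of 0.86, and r was 0.90 across the 7077 genes left after small RNAs and predicted genes were set aside, a description of 2 libraries per arm. Without the knockdown condition at 105 min the count called higher came to 1847, and with no term for arm the counts came to 1061 higher and 912 lower. The authors' own confidence limits, whose level is not stated, were apart in both arms for 4 of the 7608 genes that were higher and 150 that were lower, against 0.0349% and 2.16% of tested genes.

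**Figure D1:**
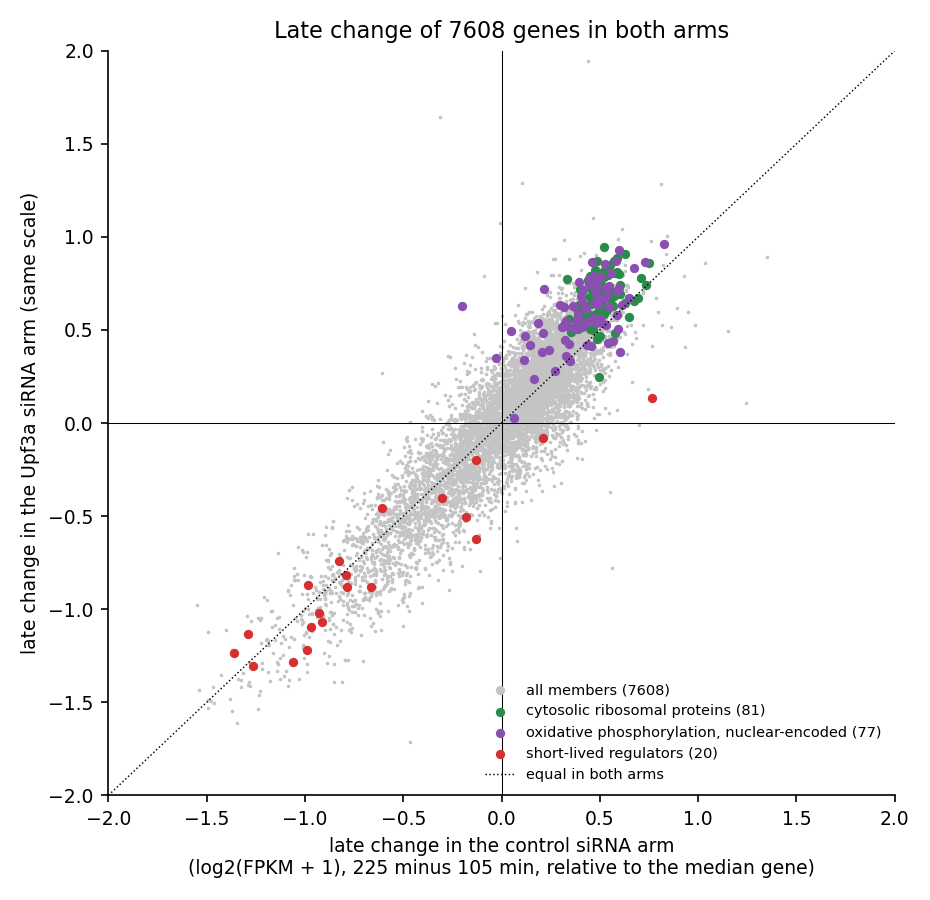
Late change (log2(FPKM + 1), 225 minus 105 min, relative to the median gene) in the control siRNA arm, x axis, and in the Upf3a siRNA arm, y axis; each point is 1 of 7608 genes and 25 small RNAs or predicted genes lie outside the axes. The 81 ribosomal protein and 77 oxidative phosphorylation genes lie at the upper right, with medians of 0.60 and 0.53 (0.052 and 0.14 after quantile normalization, 0.017 and -0.062 on the ribosomal protein scale), and most of the 20 short-lived regulators lie at the lower left.

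The FPKM minimum itself leans on the late values, since a gene that fell far enough drops below it. Of genes at 5 FPKM or more at 0 and 15 min, 989 were below the minimum over the late conditions, and 825 of them were called lower (median -0.49). Conversely, 243 of the 7608 genes had been under 5 FPKM early. At the edge of the rule, the 52 genes with a mean of 5.0 to 5.1 FPKM had a median late change of -0.29 and the 56 genes at 4.9 to 5.0 FPKM one of -0.14.

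Loss after 105 min was split by what came before it, with the early change taken from the mean of 0 and 15 min to 105 min. Continued loss means a fall of at least 0.5 log2 units in both intervals and both arms, and 290 genes met it. Their median early change was -0.78 in the control arm and -0.80 in the knockdown arm, and their median late change was -0.82 and -0.92. At 225 min a median of 29.1% of the starting FPKM was left in the control arm and 26.0% in the knockdown arm. The authors' limits at 105 and 225 min were apart in both arms for 110 of the 290, beside 2.16% of all tested genes with limits apart downward. The late fall that defines the class favours this. Because early and late share the 105 min value, no relation between them was tested.

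With small RNAs, predicted genes and clone names set aside, the 10 largest falls included Net1, Akirin2, Cnksr3, Pitpnb, Zdhhc5, Atmin, Nodal, Lgr4 and Xbp1. Late changes of the 10 ran from -1.51 to -1.39, which left 26.9% to 35.8% of the 105 min FPKM, and 9 of the 10 had limits apart in both arms. Net1, an exchange factor for the GTPase RhoA, went from 17.3 to 5.53 FPKM in the control arm and from 13.5 to 4.08 FPKM in the knockdown arm (late change -1.51, SE 0.057, limma adjusted p = 8.3e-05). Both 225 min values lie below both 105 min values, as they do for each of the 10 genes. The 10 were chosen by the size of their fall in these values, which favours this and limits that lie apart. Akirin2 and Zdhhc5 share a locus with another annotated gene. Cnksr3, a scaffold of Ras signalling, went from 8.98 to 2.59 FPKM and from 7.17 to 1.93 FPKM, and kept 14.2% and 12.1% of its starting level. Xbp1, the transcription factor spliced in the unfolded protein response, went from 24.1 to 8.38 FPKM and from 16.4 to 5.88 FPKM. Nodal, the TGF-beta family ligand that patterns the early embryo, had already dropped to 7.81 and 8.36 FPKM by 105 min and reached 2.20 and 2.54 FPKM, which is 4.45% and 3.77% of its start.

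Short-lived regulators, a list of immediate early genes, feedback inhibitors and growth regulators, lost the most of the 27 lists. Of its 20 genes at 5 FPKM or more, 17 fell and 1 rose, with a median of -0.82 (control arm -0.81, knockdown arm -0.87) against 0.10 for all 7608 genes. Of those 7608 genes 24.4% were lower and 38.6% higher. Over all 58 tested genes of the list 38 fell and 1 rose, with a smaller median of -0.36. Among all tested genes 31.1% were lower and 28.5% higher. Mycn, the neuroblastoma-derived Myc homologue, went from 9.75 to 3.50 FPKM in the control arm and from 16.8 to 6.26 FPKM in the knockdown arm. It was higher in the knockdown arm at each of the 4 times, and its late changes were -1.26 and -1.30. Id2, an inhibitor of basic helix-loop-helix factors, went from 13.5 to 4.65 and from 6.47 to 2.20 FPKM. Mcl1, an anti-apoptotic Bcl2 relative, went from 30.9 to 16.0 and from 33.4 to 15.6 FPKM. The 1 riser was Maff, a small Maf transcription factor, and it rested on the control arm: 5.98 to 10.9 FPKM there against 6.40 to 7.19 FPKM in the knockdown arm (0.45, adjusted p = 0.037, and -0.14 on the ribosomal protein scale).

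The pluripotency list was split: 11 of its 30 genes fell and 5 rose, beside 24.4% lower and 38.6% higher among all 7608 genes. Signalling genes and transcription factors were among those that fell. Lefty1, the inhibitor of Nodal, went from 41.5 to 14.2 FPKM in the control arm and from 56.7 to 25.7 FPKM in the knockdown arm. Sox2, which pairs with the Pou5f1 protein on DNA, went from 19.4 to 12.6 and from 21.9 to 11.6 FPKM. Nanog fell less, from 45.2 to 34.9 and from 68.3 to 57.3 FPKM (-0.31, SE 0.059, adjusted p = 0.0038), and its values overlap between the times, with both knockdown values above both control values. Pou5f1 itself went the other way, from 1962 to 2790.2 FPKM in the control arm and from 2171 to 3153 FPKM in the knockdown arm (0.51, adjusted p = 6.3e-04), though its late change was -0.030 under quantile normalization and -0.073 on the ribosomal protein scale. The late changes of the 37 tested genes of the list thus ran from -1.44 to 0.63. Eomes, a T-box factor of mesoderm and endoderm, was another gene of continued loss, from 5.11 to 2.58 and from 9.03 to 4.04 FPKM.

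Within the 3′ UTRs of the genes that fell most, a match to the Pumilio motif TGTANATA was frequent, and the windows below are shown because 7 of the 10 largest falls hold one. They are read from the GENCODE vM21 annotation of GRCm38, the assembly also named mm10, 24 bases each on the strand of the transcript, with the motif in capitals.
Net1: gaaaaggcTGTAAATAgatcaatg
Akirin2: actggttaTGTAAATAaaactgta
Pitpnb: cacatgagTGTATATAtatatgta
Zdhhc5: ggtgtgtgTGTACATAtatatata
Atmin: tggctcttTGTAAATAtaagtgca
Nodal: ggctggggTGTATATAtatatatg
Lgr4: gattaaacTGTACATActgtgcat
Their positions are chr13:3882626-3882649 (minus strand) for Net1, chr4:34566535-34566558 (plus) for Akirin2, chr5:111386744-111386767 (plus) for Pitpnb and chr2:84688894-84688917 (minus) for Zdhhc5. The others lie at chr8:116960231-116960254 (plus) for Atmin, chr10:61424914-61424937 (plus) for Nodal and chr2:110013830-110013853 (plus) for Lgr4. A match is a description of the letters and shows neither binding nor a cause. The motif was chosen after the late changes were known.

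The more Pumilio motifs a 3′ UTR held, the lower was the median late change in both arms, and matches on the opposite strand, which the RNA does not carry, showed a shallower gradient of the same direction. Among 7370 genes with an annotated 3′ UTR, the 5581 with no match had a median of 0.15, the 1284 with 1 match -0.044, the 352 with 2 matches -0.24 and the 153 with 3 or more -0.31. The relation was not particular to the late interval: the median early changes of the same groups were 0.17, 0.0095, -0.14 and -0.27. The share called lower went from 19.2% with no match to 36.4%, 53.7% and 62.1%, and the share called higher went from 45.1% to 22.0%, 10.5% and 7.19%. By matches on the opposite strand the medians were 0.12, -0.0094, -0.071 and -0.20, and the share called lower was 22.8%, 33.6%, 41.6% and 56.4%. A match stood in 24.3% of all these 3′ UTRs, in 51.7% of those of continued loss and in 44.1% of those of late loss, and in 4.17% of those of late gain. Long 3′ UTRs hold more of any motif, with a median of 802 bases for genes without a match and 1697.5 bases for genes with 1 match, so the shares were also taken within quintiles of 3′ UTR length. In each quintile the genes of continued or late loss held the motif more often than all genes did: 20.3% against 7.23% in the shortest quintile, 40.4% against 21.7% in the third and 68.6% against 49.1% in the longest. The same letters on the opposite strand of the 3′ UTR stood at 1.56% against 1.98%, 11.8% against 10.2% and 38.4% against 35.9% in those quintiles. No test was made of these shares, since genes are not replicates.

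**Figure D2:**
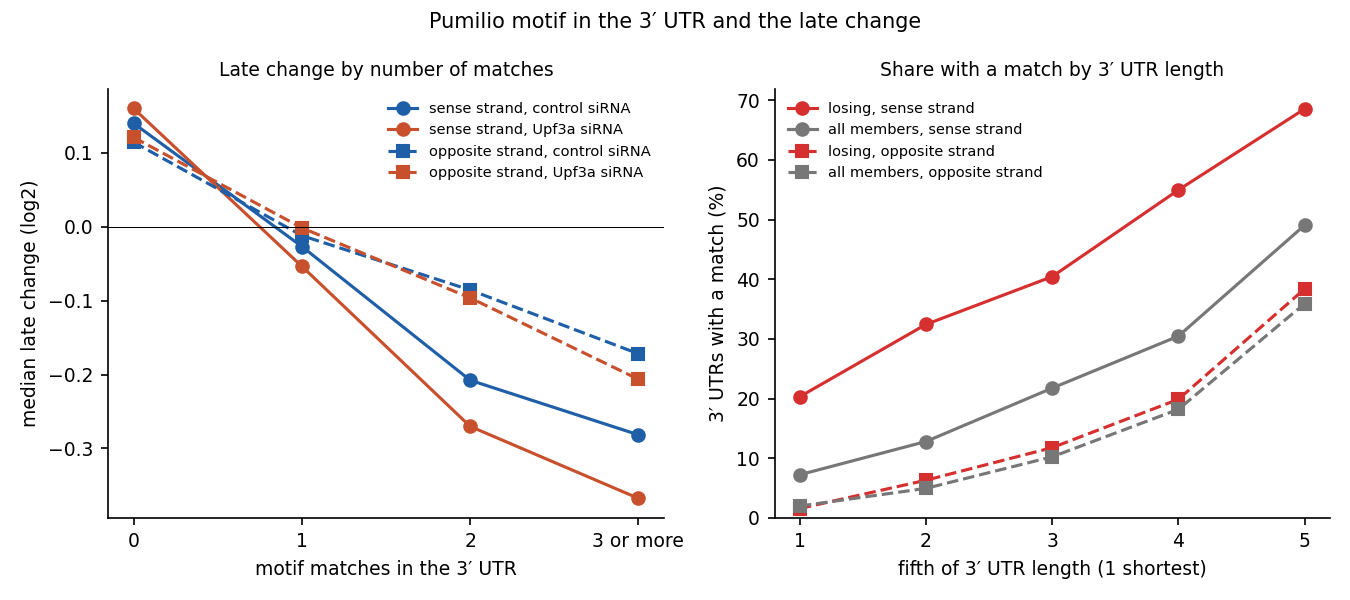
Left, median late change (log2 scale, y axis) of genes by the number of Pumilio motif matches in their 3′ UTR (x axis), on the transcript's strand (solid) and on the opposite strand (dashed), in the control (blue) and Upf3a siRNA (orange) arms. Right, percent of 3′ UTRs with a match (y axis) by quintile of 3′ UTR length (x axis), for the genes of continued or late loss (red) and all genes (grey): the solid lines are apart in every quintile, 68.6% against 49.1% in the longest, and the dashed lines lie close together, 38.4% against 35.9%.

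The mRNA of a Pumilio protein, Pum2, was itself in the group of continued loss. It went from 23.4 to 10.1 FPKM in the control arm and from 24.5 to 9.51 FPKM in the knockdown arm (-1.22, SE 0.061, adjusted p = 8.3e-05), and its 3′ UTR holds 2 matches. The list of the mRNA decay machinery, which includes Pum2, was mixed, with 17 of 52 genes lower and 11 higher. Among all 7608 genes 24.4% were lower and 38.6% higher. Cnot2, a scaffold subunit of the CCR4-NOT deadenylase, fell by 0.86 log2 units, from 25.6 to 13.3 and from 28.0 to 15.6 FPKM. Lsm4, a subunit of the ring that binds deadenylated mRNA before decapping, rose from 212 to 327 and from 222 to 391 FPKM.

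AU-rich elements showed a weaker gradient. The pentamer ATTTA, searched on the transcript's strand, stood in 66.9% of all 3′ UTRs, 84.0% of those of continued loss and 33.3% of those of late gain, or 1.77, 2.22 and 1.38 per kilobase. The nonamer TTATTTATT, which contains the pentamer, stood in 6.69% of all 3′ UTRs and in 8.33% of those of continued loss, and its density was 0.062 per kilobase in both. The window of Akirin2 and that of Pard6b, a cell polarity gene with a late change of -1.26, show it in capitals.
Akirin2: tggtagttTTATTTATTctatcagt
Pard6b: ggggacagTTATTTATTtcttaacc
They lie at chr4:34566780-34566804 and chr2:168100167-168100191, both on the plus strand of GRCm38. Of the 7 motif windows printed for the Pumilio motif, only that of Akirin2 comes from a 3′ UTR that also holds the nonamer.

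Late loss, a fall of at least 0.5 log2 units after 105 min in both arms that was not preceded by such a fall in both, was found for 342 genes. Their median early change was -0.36 in the control arm and -0.38 in the knockdown arm, and the median late change -0.68 and -0.73. Per hour the late slope was steeper than the early one in 330 of the 342 and in 116 of the 290 genes of continued loss, a difference that the rules themselves favour. Pitpnb, a phosphatidylinositol transfer protein, held 37.3 and 36.5 FPKM at 105 min after 47.7 and 45.5 FPKM at the start, and dropped to 12.9 and 12.3 FPKM by 225 min. Cdca5, the cohesin protector sororin, went from 30.9 to 12.2 and from 28.8 to 10.3 FPKM. Dlg3, a synaptic scaffold, went from 11.1 to 4.42 and from 9.71 to 3.59 FPKM, and Med17, a Mediator subunit, from 12.3 to 4.68 and from 14.2 to 6.40 FPKM.

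Of 38 mitotic genes, 5 were in the late loss class and 0 in that of continued loss, beside 4.50% and 3.81% of all 7608 genes. The 0 lies near the share among all genes, and no contrast of the classes was tested. Over the list, 14 genes fell and 8 rose. Plk1, the kinase that drives mitotic entry and spindle assembly, was at 67.5 and 97.8 FPKM at 105 min and at 33.7 and 50.7 FPKM at 225 min (-0.97, SE 0.061, adjusted p = 1.0e-04). Incenp, of the chromosomal passenger complex, went from 36.2 to 20.2 and from 42.9 to 19.5 FPKM. Ect2, the exchange factor of cytokinesis, went from 23.6 to 13.3 and from 24.6 to 15.8 FPKM. Among replication and G1 genes, 8 of 40 fell and 16 rose, near the 24.4% and 38.6% of all 7608 genes, and 3 were in the class of continued loss. Cdt1, which loads the replicative helicase, went from 24.7 to 9.57 and from 27.4 to 9.91 FPKM. Its partners Cdc6 and Orc1, the other two, fell by 0.72 and 0.70 log2 units.

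**Figure D3:**
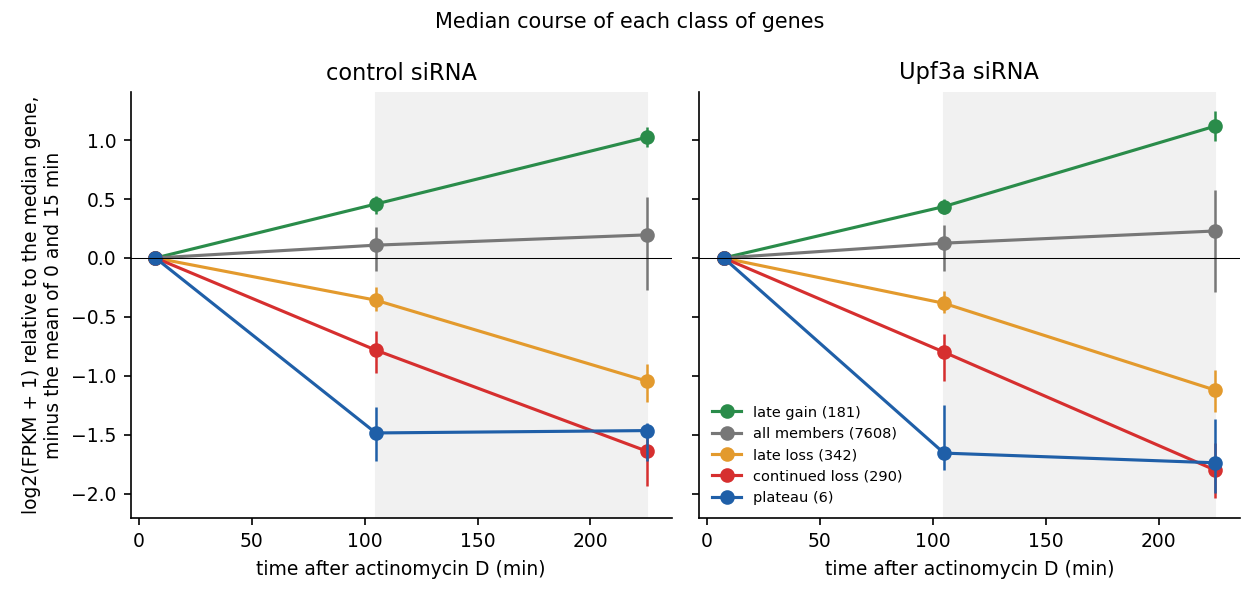
Median log2(FPKM + 1) relative to the median gene, minus the mean of 0 and 15 min (y axis), at 105 and 225 min after actinomycin D (x axis, minutes) for each class in the control (left) and Upf3a siRNA (right) arm; bars span the interquartile range and the late interval is shaded. Genes of continued loss ended at -1.64 and -1.80, those of late loss at -1.04 and -1.12, the 6 plateau genes stayed near their 105 min level, and those of late gain ended at 1.02 and 1.12, a class that shrinks to 58 genes under quantile normalization and 1 on the ribosomal protein scale.

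Plateau was rare. Only 6 of the 7608 genes had lost at least 1 log2 unit by 105 min and then stayed within 0.25 of the median gene in both arms, and 3 of the 6 are neither predicted genes, clones nor pseudogenes. Ier2, an immediate early gene, dropped from 38.5 and 39.5 FPKM at the start to 11.0 and 10.6 FPKM at 105 min and was still at 10.0 and 9.16 FPKM at 225 min. Id1, of the same family as Id2, dropped from 68.7 and 51.9 FPKM to 18.6 and 14.9 FPKM and then stood at 21.8 and 14.2 FPKM. Its late change of 0.064 had an adjusted p of 0.5, and its sign turned in 4 of the alternatives. Cd209c, a C-type lectin gene whose level was lower in the knockdown arm, held 84.8 and 23.0 FPKM at 105 min and 74.9 and 23.6 FPKM at 225 min. Id2, by contrast, is among the genes of continued loss. Among 511 genes that had fallen by at least 0.5 log2 units early in both arms, 432 (84.5%) were called lower again over the late interval, 66 were not called and 13 were called higher. Of all 7608 genes 24.4% were called lower and 38.6% higher. For 395 of the 511 (77.3%) the late loss per hour was smaller than the early one, which the choice of these genes by their early fall, sharing the 105 min value, and the late FPKM minimum favour.

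Rebound was found for small RNAs alone. The 2 genes that fell by 0.5 and then rose by 0.5 log2 units in both arms are the small nucleolar RNAs Snora17 and Snora75. Snora17 was listed at 0 and 19.4 FPKM at 105 min in the control and knockdown arms and at 61.9 and 39.1 FPKM at 225 min. Snora75 was listed at 0 in both arms at 105 min and at 61.5 and 64.1 FPKM at 225 min, but also at 0 in the control arm at the start. FPKM of RNAs this short is unsteady in this table: 25 of the 36 small RNAs at 5 FPKM or more were listed at 0 in at least 1 late condition.

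Host genes of small nucleolar RNAs have spliced exons that are a known substrate of nonsense-mediated decay. Of 10 such genes at 5 FPKM or more, 4 rose and 1 fell over the late interval, near the 38.6% higher among all 7608 genes. Before it, 8 were lower at 105 min than at the start in both arms (list median -0.67), and 6 of the 8 had late changes above 0 in both arms, of which Gas5, Snhg4 and Snhg8 passed the test. Gas5 went from 18.4 FPKM at the start to 6.82 and 9.37 FPKM in the control arm, and from 21.7 to 5.69 and 7.28 FPKM in the knockdown arm. Its late change of 0.35 was near the threshold (SE 0.13, adjusted p = 0.048), and was -0.019 with the trends of length and GC content removed and -0.24 on the ribosomal protein scale. Snhg4 went from 25.5 to 14.2 and 19.1 FPKM in the control arm and from 25.2 to 11.3 and 14.8 FPKM in the knockdown arm (0.37, adjusted p = 0.01). Snhg8 rose from 11.2 to 16.8 and from 10.2 to 13.7 FPKM, and Snhg1 from 456 to 650.2 and from 467 to 711 FPKM without an early fall. On the ribosomal protein scale, the late changes of Snhg4, Snhg8 and Snhg1 came to -0.21, -0.13 and -0.039. Snhg5 kept falling, from 11.8 to 9.14 and from 12.6 to 8.28 FPKM. Gas5, Snhg1, Snhg4 and Snhg8 are among the hosts that share their locus with other annotated genes, so reads may be split between them. Without genes that share a locus the list median of 0.33 came to -0.18. That value rests on Snhg3 and Snhg5 alone, whose late changes were 0.078 and -0.45, so it is no reversal of the other hosts.

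**Figure D4:**
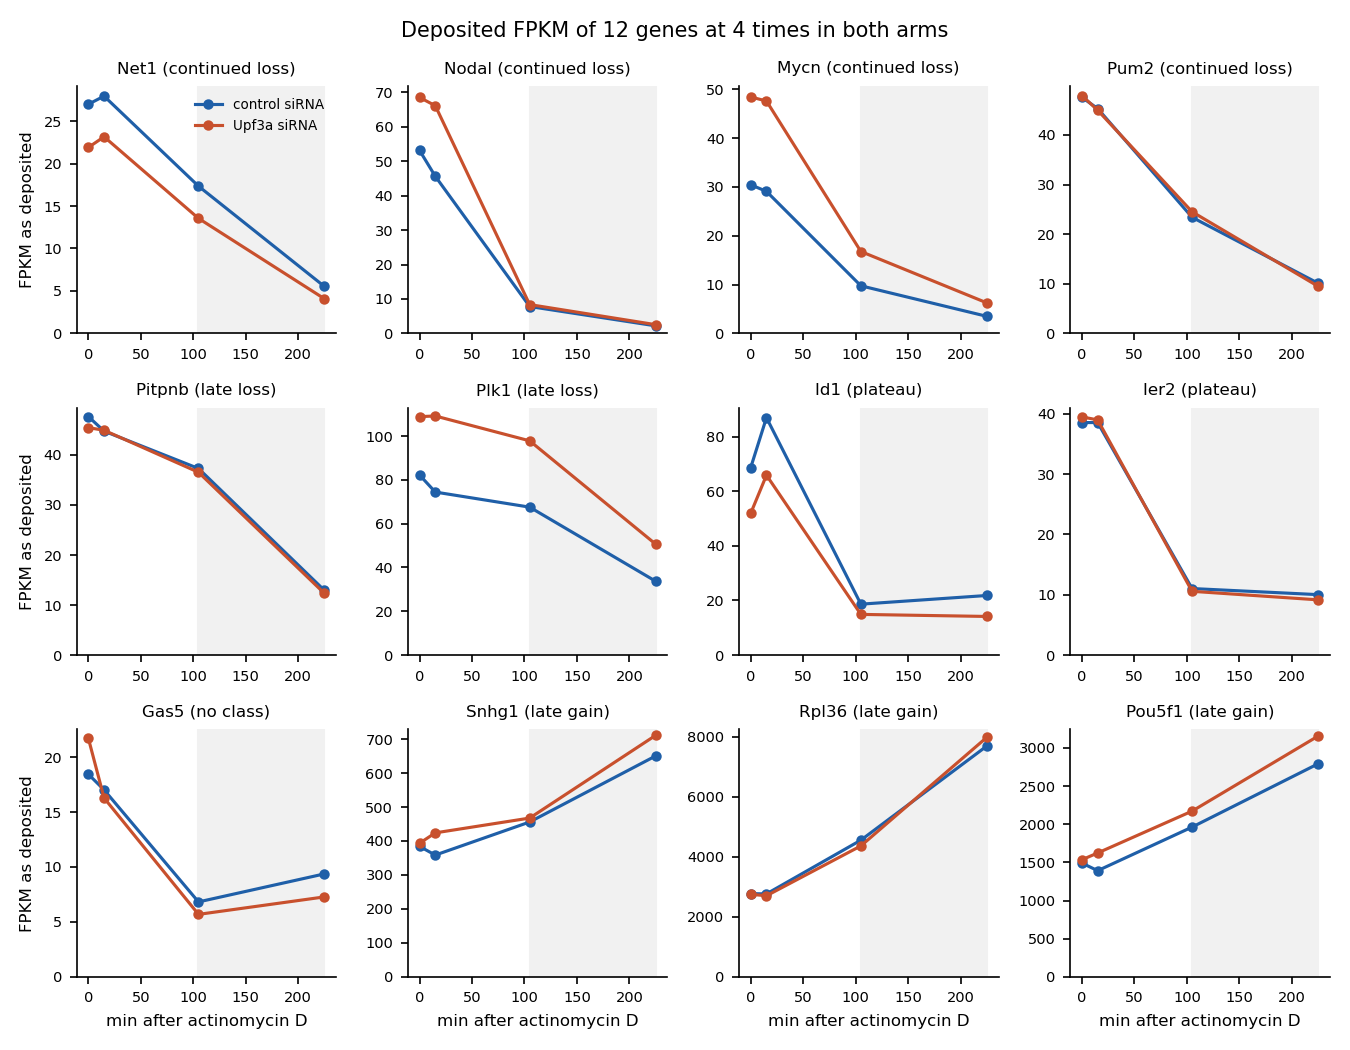
Deposited FPKM (y axis, linear, from 0) of 12 genes at 0, 15, 105 and 225 min after actinomycin D (x axis) in the control (blue) and Upf3a siRNA (orange) arms, 1 value per condition; the late interval is shaded. Net1, Nodal, Mycn and Pum2 kept falling, Pitpnb and Plk1 fell mainly after 105 min, Id1 and Ier2 stayed level, Gas5 turned upward and Snhg1, Rpl36 and Pou5f1 were higher at 225 than at 105 min, though on the ribosomal protein scale the late changes of Gas5, Snhg1 and Pou5f1 are -0.24, -0.039 and -0.073.

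Late gain, a rise of at least 0.5 log2 units over the median gene in both arms, was met by 181 genes, and 156 of them had also risen by 0.25 or more before 105 min in both arms. They were abundant and short: median 312 FPKM against 20.1 FPKM for all 7608 genes, and a median transcript of 815 bases against 2902.5 bases. Their share of the library at 225 min was a median of 208% of the start in the control arm and 224% in the knockdown arm. Ribosomal protein genes supplied 41 of the 181 and oxidative phosphorylation genes 23. The size of the class depended on scaling: it came to 58 genes under quantile normalization, 68 with the trends of length and GC content removed and 1 on the ribosomal protein scale.

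Of 81 cytosolic ribosomal protein genes 80 rose and none fell, with a median of 0.60 (control arm 0.50, knockdown arm 0.68); the median was 0.052 under quantile normalization and 0.32 with length and GC trends removed. Rpl36, a protein of the large subunit (chromosome 17, 56613416 to 56614243, + strand, GRCm38), went from 4552 to 7686 FPKM in the control arm and from 4361 to 7976 FPKM in the knockdown arm (0.80, SE 0.057, adjusted p = 1.3e-04). Rps20, of the small subunit, went from 4838 to 7494 and from 3978 to 7531 FPKM. Of 77 nuclear-encoded oxidative phosphorylation genes 73 rose, with a median of 0.53 that was -0.062 on the ribosomal protein scale. Cox8a, a subunit of cytochrome c oxidase, went from 846 to 1507 and from 945 to 1861 FPKM, and Ndufb2, of complex I, from 97.3 to 163 and from 97.3 to 179 FPKM. Cox8a and Rpl36 are among the 4 genes whose limits were apart upward in both arms. Mitochondrial ribosomal proteins were more mixed, with 35 of 76 higher and 10 lower and a median of 0.18 (-0.40 on the ribosomal protein scale). The counts of these lists stand beside 38.6% higher and 24.4% lower among all 7608 genes. Mrpl33 rose from 140.2 to 203 and from 128 to 211 FPKM, while Mrps2 fell from 11.2 to 5.87 and from 23.2 to 11.6 FPKM. Reads of ribosomal protein genes can be split with their many processed pseudogenes.

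Other housekeeping assemblies moved the same way and less far. Their counts stand beside 38.6% higher and 24.4% lower among all 7608 genes. Of 35 proteasome subunit genes 29 rose (median 0.33, -0.0077 under quantile normalization and -0.26 on the ribosomal protein scale), led by Psmd8, a subunit of the regulatory particle, from 171 to 253 and from 168 to 276 FPKM. All 8 genes of the CCT chaperonin, which folds actin and tubulin, rose (median 0.29, -0.11 under quantile normalization and -0.29 on the ribosomal protein scale). Of 22 glycolytic genes 19 rose and 2 fell (median 0.42, -0.16 on the ribosomal protein scale). Eno1, an enolase, went from 908 to 1303 and from 813 to 1582 FPKM, and Pgk1, phosphoglycerate kinase, from 1329 to 1828 and from 1044 to 1617 FPKM. Hk2, the inducible hexokinase, fell from 32.8 to 26.0 and from 34.5 to 21.7 FPKM. Heat shock chaperones rose for 9 of 14 genes (median 0.25, -0.13 under quantile normalization and -0.34 on the ribosomal protein scale), while the co-chaperones Dnajb1 and Bag3 fell by 0.82 and 0.70 log2 units. Replication-dependent histone mRNAs, which end in a stem-loop in place of a poly(A) tail, had 15 of 20 tested genes higher and none lower (median 0.70 over the 20), at levels where only 3 reached 5 FPKM. Among all tested genes 28.5% were higher. Hist1h3c went from 9.90 to 18.6 and from 8.12 to 17.5 FPKM.

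The largest rises of all were found at lower levels. Scand1, a SCAN domain gene that shares its locus, went from 23.2 to 61.0 FPKM and from 41.5 to 78.7 FPKM, though it had stood at 8.57 and 15.1 FPKM at the start (1.12, SE 0.30, adjusted p = 0.017). With small RNAs, predicted genes and clone names set aside, it is the 1 gene that rose by at least 1 log2 unit. Apoc1, an apolipoprotein, went from 3.30 to 7.84 and from 4.43 to 8.92 FPKM, and Npw, a neuropeptide precursor, from 3.32 to 7.26 and from 4.50 to 8.58 FPKM. For each of these genes both 225 min values lie above both 105 min values, which their choice as the largest rises favours. Erdr1 went from 48.9 to 110.2 and from 101 to 143 FPKM, a change of 1.15 in the control arm and 0.49 in the knockdown arm.

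**Figure D5:**
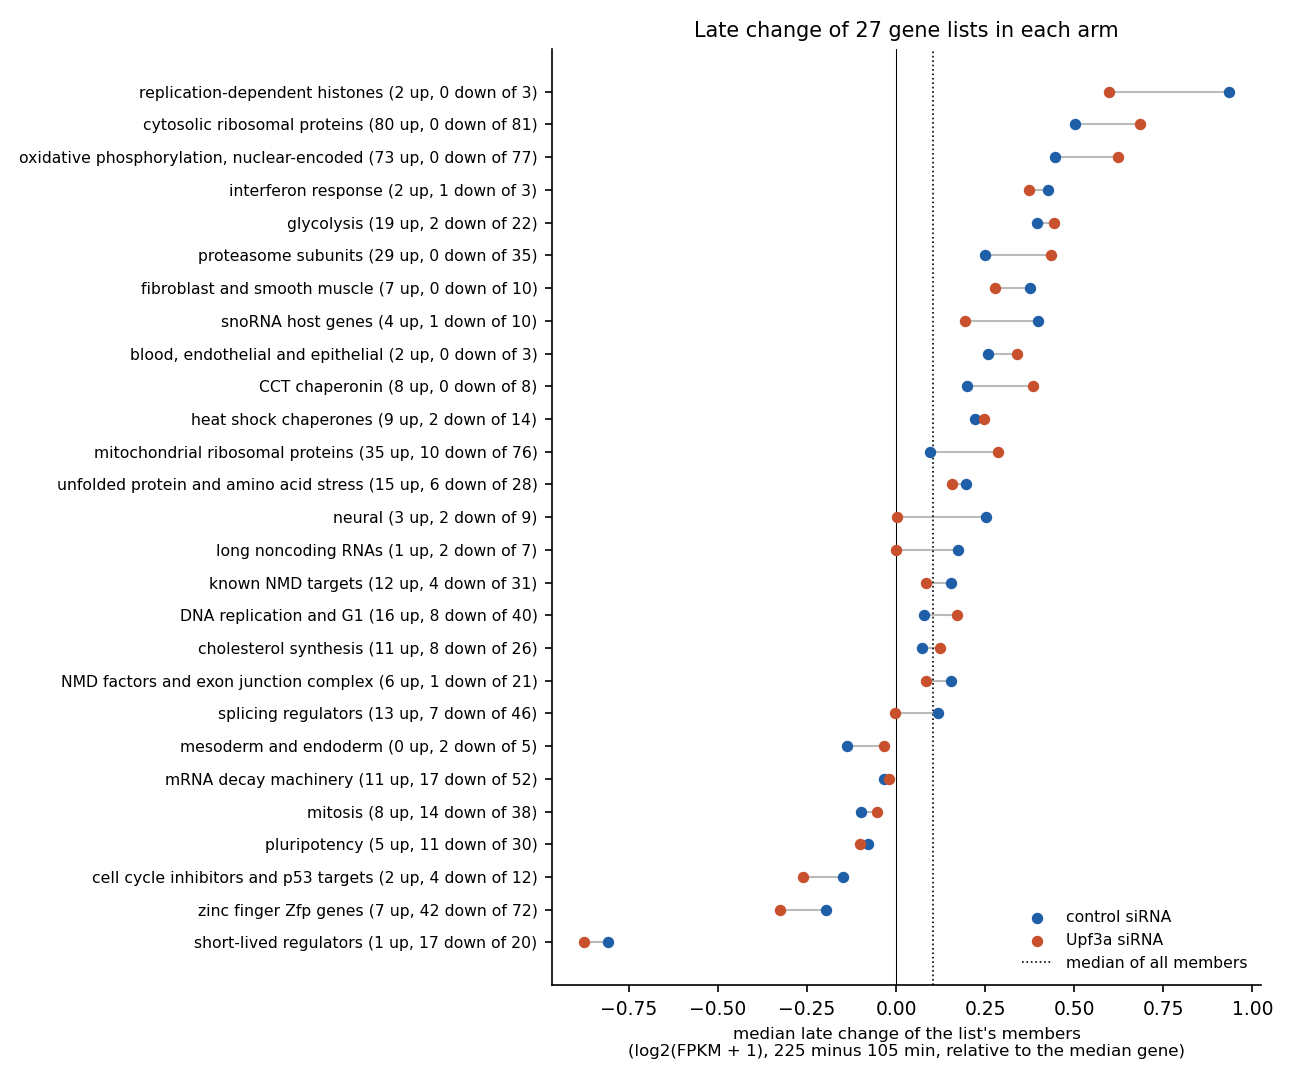
Median late change of the genes at 5 FPKM or more in each of 27 lists (x axis, log2 scale relative to the median gene) in the control (blue) and Upf3a siRNA (orange) arms; labels give how many rose and fell, and the dotted line is the median of all 7608 genes, 0.10. Short-lived regulators and Zfp genes lie to the left of 0 and ribosomal protein and oxidative phosphorylation genes to the right in both arms; on the ribosomal protein scale all medians move left with that of all tested genes, which is then -0.58, and that of oxidative phosphorylation genes is -0.062.

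The next lists are read against the 24.4% lower and 38.6% higher among all 7608 genes, and the falls in the first 2 lie near that share. In the list of the unfolded protein and amino acid stress response, 6 of 28 genes fell and 15 rose, and the falls included Xbp1 and Slc38a2, an amino acid transporter, from 31.4 to 13.0 and from 26.2 to 9.94 FPKM. Atf4, the transcription factor of that response and a known target of nonsense-mediated decay, held 82.6 and 104 FPKM at 105 min and fell to 50.7 and 64.4 FPKM. In the cholesterol list 8 of 26 genes fell and 11 rose. Sqle, squalene epoxidase, fell from 44.6 to 23.7 and from 38.3 to 19.1 FPKM. Zfp genes, zinc finger proteins named by that prefix, had 42 of 72 lower and 7 higher with a median of -0.26. Of the 272 tested 168 were lower, beside 31.1% of all tested genes. Zfp828 and Zfp143, with late changes of -1.18 and -1.17, were the strongest by moderated t. Of 12 cell cycle inhibitors and p53 targets 4 fell and 2 rose, and Sesn2, a stress-induced inhibitor of mTORC1, went from 8.42 to 4.36 and from 12.7 to 6.15 FPKM.

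Factors and targets of nonsense-mediated decay had medians close to that of all genes. Counts in this paragraph stand beside 38.6% higher and 24.4% lower among all 7608 genes. Of 31 known targets 12 rose and 4 fell, with a median of 0.13 (-0.46 on the ribosomal protein scale) against 0.10 for the 7608 genes, and of 21 factors and exon junction genes 6 rose and 1 fell (median 0.084, -0.50 on the ribosomal protein scale). Upf3a stood at 14.0 and 15.0 FPKM in the control arm and at 4.76 and 4.16 FPKM in the knockdown arm, lower in the knockdown arm at both times (late change -0.043, adjusted p = 0.73, 0.094 under quantile normalization). Upf3b, its paralog, rose from 12.7 to 18.3 and from 10.8 to 14.0 FPKM (0.42, SE 0.092, adjusted p = 0.0075, -0.17 on the ribosomal protein scale). Casc3, of the exon junction core, was the 1 factor that fell, from 19.2 to 14.0 and from 27.8 to 16.3 FPKM, and its core partner Magoh rose by 0.43 (-0.16 on the ribosomal protein scale). Among markers of other cell types, of 10 fibroblast and smooth muscle genes 7 rose (summed level 459 to 582 FPKM), of 9 neural genes 3 rose and 2 fell (219 to 268 FPKM), and of 3 blood, endothelial and epithelial genes 2 rose (186 to 251 FPKM, mostly from Epcam, Krt8 and Krt18). Their part in the results was not tested. The remaining lists gave 13 higher and 7 lower of 46 splicing regulators, 1 higher and 2 lower of 7 long noncoding RNAs, 2 higher and 1 lower of 3 interferon response genes and 2 lower of 5 mesoderm and endoderm genes. The FPKM minimum leaves few genes in the last 2 lists. Over tested genes, 9 of 15 mesoderm and endoderm genes were lower and 1 higher (median -0.30). Of 12 tested interferon genes 3 were higher and 3 lower. Among all tested genes 28.5% were higher and 31.1% lower.

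Late change was lower in longer transcripts. From the shortest to the longest quintile of transcripts the median was 0.35, 0.18, 0.081, 0.016 and -0.082, and the share called higher went from 67.5% to 15.8% while the share called lower went from 8.26% to 40.9%. The span between the end quintiles was wider in the knockdown arm (0.41 to -0.15) than in the control arm (0.28 to -0.043). By mean FPKM, the lowest quintile had a median of -0.11 and the highest 0.34. Across 7504 annotated genes Pearson's r of the late change with log2 transcript length was -0.40, and across 7608 genes r with log2 mean FPKM was 0.44; genes share the same libraries, so both are descriptions. The mean FPKM is taken over the same 4 late values as the late change and the rule of choice, so the relation with level is partly built in. The sources used here give no RNA quality for the 225 min samples. With length and GC trends removed in each condition, 3622 tested genes were called higher and 3013 lower, against 3259 and 3563.

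Few differences between the arms in late change passed the test, which has 1 residual degree of freedom and recovered 6% of simulated differences of 0.6. Of 11452 tested genes 8 (0.0699%) passed limma's test of the arm difference, all of them small RNAs listed at 0 in part of the conditions, and 543 of the 7608 genes had an unadjusted p below 0.05. Among genes other than small RNAs, predicted genes and clones 0 passed, and the lowest adjusted p was 0.42, for Mxd3, a Myc antagonist of the Mad family that shares its locus with another gene. It went from 5.87 to 5.47 FPKM in the control arm and from 4.26 to 8.16 FPKM in the knockdown arm, a difference of 0.88 (SE 0.12). Other genes with a large moderated t were Rhog and Ninj1 with differences of 0.57 and 0.57, and, toward more loss in the knockdown arm, Setd1a, Fbrs, Cdkn2d and Hspg2 with -0.71, -0.71, -0.63 and -0.60, each with an adjusted p of 0.62. Cdkn2d, an inhibitor of the G1 cyclin-dependent kinases, went from 9.88 to 8.08 FPKM with control siRNA and from 7.18 to 3.44 FPKM with the siRNA against Upf3a. Small shifts ran through whole lists: the late change was higher in the knockdown arm for 74 of 81 ribosomal protein genes, 67 of 77 oxidative phosphorylation genes, 70 of 76 mitochondrial ribosomal protein genes and 34 of 35 proteasome genes, beside 55.7% of all 7608 genes. The median differences of those lists were 0.19, 0.17, 0.15 and 0.18 log2 units, and FPKM totals also rose more in the knockdown arm over the interval. Other lists shifted the opposite way. The late change was higher in the knockdown arm for 4 of 21 nonsense-mediated decay factors and exon junction genes and 1 of 10 snoRNA hosts. It was higher there for 15 of 46 splicing regulators and 2 of 9 neural genes. The median differences of these 4 lists were -0.11, -0.17, -0.072 and -0.25. Whether the shifts are of the arm or of 1 library cannot be told apart with 1 value per condition.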

How the data were processed

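RNA-seq of P19 cells was deposited as 1 table of FPKM values with confidence limits per gene for 8 conditions, in which the authors had already combined the cultures that the labels list for each. Per the submitters' processing notes the tools included TopHat2 and Cufflinks, with the mouse build mm10; their versions, the annotation and the level of the limits are not given in the sources used here. Read depth is unknown, so no counting interval is given, and no count test was run.

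For each condition log2(FPKM + 1) was taken for the 11452 genes with a mean of 1 FPKM or more over the 8 conditions. The deviation of each gene from its own mean over the 8 conditions was computed, and the median deviation in a condition was subtracted from all its values. The late change (225 minus 105 min) was fitted with limma 3.58.1 in R 4.3.3, with terms for the 4 time points and for arm (3 residual degrees of freedom, and 4.01 prior degrees of freedom). The arm difference was fitted over the 8 conditions with terms for time point and arm and separate arm terms at 105 and 225 min (1 residual degree of freedom). P-values were adjusted by Benjamini-Hochberg over all tested genes, with a threshold of 0.05. On simulated data with 200 of 11452 genes changed, 22.0% of late changes of 0.3 and 100% of those of 1 were recovered, and 8.27% of calls were false. Both shares depend on how many genes change. In the data 59.6% of tested genes were called, so these percentages do not carry over to the late test as run. For the arm difference 6% of differences of 0.6 and 99% of those of 2 were recovered, and 11.0% of calls were false.

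Genes were named by rule: the 10 largest called falls and rises with the same sign in both arms, the 6 largest of each class, the 4 largest arm differences each way and up to 4 genes of each of 27 lists by moderated t, and in any case Upf3a and its paralog Upf3b. Small RNAs, predicted genes, clone names and pseudogenes were left out of the names but not of the counts, and some of the genes picked this way are left out of the text. Eno1, Hk2, Maff, Nanog, Pard6b, Pou5f1, Snhg4 and Sox2 were named after their values were seen, as were the small RNAs of the rebound class. The members, the lists and the motifs were chosen with earlier results of these data known. Alternatives changed the pseudocount, the filter, the scaling, the terms of the fit, the class thresholds and the conditions included. Annotation came from GENCODE vM21 (GRCm38), which matched 7504 of the 7608 genes by symbol. Sequences were read from its transcript sequences. Figures were drawn with matplotlib 3.10.9.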

Additional observations from a re-analysis of the deposited data

Results flagged for a closer look

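The late change differed between the arms, by limma's test of the difference itself, for 8 genes, all of them small RNAs. Mir1940 differed by -8.55 and was listed above 0 in 1 of the 8 conditions, at 371 FPKM in the knockdown arm at 105 min. Mir767 differed by -8.61 and Mir760 by -5.33, and each was listed above 0 only in the control arm at 225 min, at 389 and 39.1 FPKM. Snora2b differed by -7.58, with 189 FPKM in the knockdown arm at 105 min and 0 in every other condition. Mir1940, Mir767, Mir760 and Snora2b were at 0 in all conditions at 0 and 15 min, which alone give the spread of this test. They thus had no spread of their own and all took the same SE, 0.116, from the other genes, so their passing says nothing of their own variability. Mir3096 differed by 10.21, with 1191 FPKM in the knockdown arm at 225 min and 0 in the other 3 late conditions. Snora43 differed by 9.45, from 39.2 FPKM to 0 in the control arm and from 0 to 16.5 FPKM in the knockdown arm. Snora52 differed by -5.37, from 0 to 40.2 FPKM in the control arm and at 0 at both times in the knockdown arm. Snora70 differed by 5.58, from 21.9 to 28.9 FPKM in the control arm and from 0 to 62.1 FPKM in the knockdown arm. Each of the 8 rests on a value of 0 in a late condition, so these differences are no measure of fold change. An estimate was marked as failed at 105 or 225 min for 2 of the 7608 genes. Without genes that share a locus 1 of the 8 calls was left.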

How the results depend on the processing

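Scaling decided the balance of rises and falls. Scaled to ribosomal protein genes, the median of all tested genes was -0.58, and 13 tested genes were called higher and 10296 lower (11 and 6620 of the 7608). With no term for arm 1097 tested genes were higher and 1630 lower (1061 and 912), and by the authors' limits, added after seeing the data, 4 and 150 of the 7608. Rises made up 61.3% of calls among the 7608 genes, 53.5% under quantile normalization and 0.17% on the ribosomal protein scale. Leaving out 1 condition gave 2003 to 3094 tested genes higher and 2694 to 3467 lower (1847 to 2804 and 1430 to 1778 of the 7608), lowest without the knockdown condition at 105 min; without the control condition at 105 min 2172 tested genes were higher. Arm differences numbered 13 on the ribosomal protein scale and 1 without shared loci.

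Class sizes moved with thresholds. Continued loss (290) came to 120 with a pseudocount of 5, 1718 on the ribosomal protein scale, 456 with thresholds of 0.4 and 0.8 and 106 with 0.7 and 1.4. Late loss (342) came to 199, 1126, 214 under quantile normalization and 200 with thresholds of 0.7 and 1.4. Plateau (6) came to 1 on the ribosomal protein scale, 15 and 3 with the lower and higher thresholds, and 20 and 17 in the control and knockdown arm alone. Rebound (2) came to 1 on the ribosomal protein scale, with length and GC trends removed or with 0 min alone as the start, 0 without shared loci, and 15 and 19 in 1 arm alone. Late gain (181) came to 85 with a filter at 5 FPKM, 1 on the ribosomal protein scale, 58 under quantile normalization, 68 with length and GC trends removed, 516 and 15 with the lower and higher thresholds and 703 in the knockdown arm alone.

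Signs turned for these genes. Scaled to ribosomal protein genes, Cct8 was -0.20, Gas5 -0.24, Id1 -0.52, Maff -0.14, Magoh -0.16, Pgk1 -0.052, Pou5f1 -0.073, Snhg1 -0.039, Snhg4 -0.21, Snhg8 -0.13 and Upf3b -0.17. Under quantile normalization Cct8 was -0.0019, Pou5f1 -0.030 and Upf3a 0.094, and with length and GC trends removed Gas5 was -0.019 and Id1 -0.16. Leaving out 1 condition gave values of -0.053 to 0.18 for Id1 (-0.015 without the control condition at 105 min), -0.24 to 0.074 for Cd209c and -0.19 to 0.10 for Upf3a. List medians that turned on the ribosomal protein scale were fibroblast -0.26, blood, endothelial and epithelial -0.29, mitochondrial ribosomal proteins -0.40, oxidative phosphorylation -0.062, proteasome -0.26, CCT -0.29, glycolysis -0.16, cholesterol -0.49, snoRNA hosts -0.26, NMD targets -0.46, NMD factors -0.50, unfolded protein response -0.41, heat shock -0.34, DNA replication -0.46, long noncoding RNAs -0.44 and interferon -0.10. Under quantile normalization they were proteasome -0.0077, CCT -0.11, cholesterol -0.051, heat shock -0.13, DNA replication -0.056 and long noncoding RNAs -0.11. Without shared loci they were snoRNA hosts -0.18 (Snhg3 and Snhg5 alone), decay machinery 0.023 and long noncoding RNAs -0.46. With length and GC trends removed they were decay machinery 0.021 and mitosis 0.0097. The cause was not tested beyond what each setting does by construction. The term for arm pairs the late and earlier conditions within each arm, and the counts without it are given above. By replicate number, no paired analysis was possible because each condition has 1 combined value and the columns carry no replicate numbers. Depth is unknown, and in the late conditions the upper limits exceeded FPKM by 30.1% at the median.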
